A study of Mus musculus with 2 samples.

Results

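Genomic reads are long reads that were assigned to an annotated gene but whose structure fitted none of its splice patterns. The tissue was the adrenal gland of B6CASTF1/J mice, an F1 hybrid with a B6 and a CAST parent. The animals were male and 2 months old, and no treatment is named. The 2 libraries, replicate 1 and replicate 2, form a single group. The biosample labels number the animals differently, whereas the library labels and the donor entry do not, so separate animals are not shown and the spread between libraries may be technical. A p-value between them measures how these libraries differ and nothing beyond.

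A gene was a member when models of the genomic class held at least 5 of its reads in each library. The members were chosen by the count of genomic reads itself, so their presence in both libraries is a description. This rule gave 549 genes of 16457 annotated genes with a read, and of 8076 genes with a genomic read in either library. The members held 23701 of 37949 genomic reads of annotated genes in replicate 1 (62.5%) and 11540 of 21382 in replicate 2 (54.0%). At the threshold, 124 members had a smaller count of exactly 5, with median shares of the gene's reads of 12.9% and 11.7%. Just outside it, 187 genes had a smaller count of 4, with median shares of 19.05% and 16.0%.

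A messenger RNA is made as a precursor whose introns are spliced out, and a poly(A) tail is added after a signal near its 3′ end. A long read that starts at the tail and stops early may lie wholly in the last exon and then shows no junction. A read that runs through an intron can come from an unspliced or partly spliced molecule. The genomic class of the annotation program TALON can hold both kinds, so the reads are described by their position in the gene.

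The 3′ ends of the most read models are shown first. Each sequence below is the last 30 bases of a model that stops at an annotated transcript end, read 5′ to 3′ on the gene's strand from GENCODE M21 transcripts (GRCm38), with the poly(A) signal AATAAA or ATTAAA in capitals. Cyp11a1 is at chr9:58026994-58027023 (plus strand), Kcnk3 at chr5:30625242-30625271 (plus), Apoe at chr7:19696267-19696296 (minus) and Mrpl30 at chr1:37898309-37898338 (plus).
Cyp11a1: agggagttAATAAAcacttgaacactgagg
Kcnk3: cctAATAAAtgctgtccatggagaccaggc
Apoe: ttgcttAATAAAgattctccgagcacattc
Mrpl30: ttctcATTAAAgtgtatgttcatccagtca
In these 4 sequences the signal stands 16, 21, 18 and 19 bases before the end.

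Other members had models that stop elsewhere in their exons, and some of these ends also carry the signal. The next sequences are the last 30 bases of such models. Slc25a4, an ADP/ATP carrier, is at chr8:46207167-46207196 (minus strand) and Tmem127 at chr2:127260730-127260759 (plus).
Slc25a4: cattAATAAAgactactcaatacactttat
Tmem127: gaactAATAAActttatagcctttgttttc
The Tmem127 end was the same base in both libraries.

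A further set stops just before a run of A on the member's strand. For Gm43126, Gm20659 and Glp2r the printed bases are not from the member's own exons. They were read from exons annotated on the other strand, where Ccnd2, Dusp3 and Gas7 lie, and turned to the member's strand. For Kcnk3 and Zbtb7a they lie in the member's own last exon. Here 10 bases before and 20 bases after the model's 3′ end are shown, and capitals mark every A after the end. Gm43126 is at chr6:127128818-127128847 (plus strand), Gm20659 at chr11:101972941-101972970 (plus), Glp2r at chr11:67687112-67687141 (minus), Kcnk3 in replicate 2 at chr5:30623532-30623561 (plus), and Zbtb7a at chr10:81151602-81151631 (plus).
Gm43126: ataattgtgcAAAAAAAAAAAAAcAAAAAA
Gm20659: attctgggccAAAAAAAAAAAAAAAAAAAA
Glp2r: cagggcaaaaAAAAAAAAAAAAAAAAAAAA
Kcnk3: gagggcaagatAAAAAAgAAAgAAAgAAAA
Zbtb7a: ggctgaaaggAAAAAtAgAAAAAAAAcAAA
The 20 bases after the end held 19, 20, 20, 16 and 17 A in this order.

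The libraries held 829956 reads in replicate 1 and 661982 in replicate 2, of which 800029 and 638310 fell on annotated genes. Genomic reads made up 4.74% of annotated-gene reads in replicate 1 (Wilson 95% interval 4.70 to 4.79) and 3.35% in replicate 2 (3.31 to 3.39), and 3.47% and 2.83% without Cyp11a1. CPM here are reads scaled by the library's annotated-gene reads. Adrenal cortex markers summed to 59214 and 62488 CPM, chromaffin markers to 11591 and 12768 CPM, so the labelled tissue was present in both. Adipocyte markers summed to 4950 and 1764 CPM and erythroid markers to 1989 and 827 CPM, higher in replicate 1. All 4 adipocyte markers and all 4 erythroid markers were read. Kidney markers had 6 reads in each library and liver markers 0 and 2. The part of these cell types in any difference between the libraries below was not tested.

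Of the member genomic reads, 99.1% in replicate 1 and 98.6% in replicate 2 lay on models with a single exon. The largest model held all of a member's genomic reads in the median member of either library. Model coordinates are not those of single reads. Neighbouring pairs of single-exon models in 1 gene were counted over annotated genes and not over members alone. Of 1154 and 885 such pairs, 131 (11.4%) and 103 (11.6%) overlapped. How TALON assigned single reads to these models was not tested, and 41 and 28 member models were 1 base long. Polr2l, a small subunit shared by the RNA polymerases, had 122 and 60 reads on such a 1-base model at the same position in both libraries. The position classes below describe models weighted by reads, and how many reads hold a given base cannot be read from them.

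By position, 37.9% of member genomic reads in replicate 1 and 45.5% in replicate 2 were in the class of the last exon alone, with no more than 10 bases elsewhere. By this rule a single-exon model of 10 bases or fewer falls in the class wherever it lies. In replicate 2 these included 1-base models of Map3k13 and Gm26551 that lay in an intron. Reads on models with both exon and intron made up 53.9% in replicate 1 and 39.9% in replicate 2. A single gene, Cyp11a1, held 46.1% and 32.0% of all member genomic reads and sat in that class. Without Cyp11a1, the last exon class held 70.3% and 66.9%, and exon with intron 14.5% and 11.5%. Genes outside the member set had 71.6% and 62.7% in the last exon and 10.8% and 17.7% in exon with intron. Intron-only reads were 5.10% and 6.65% in members without Cyp11a1, against 10.9% and 10.3% in the other genes, a description without a test.

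**Figure D1:**
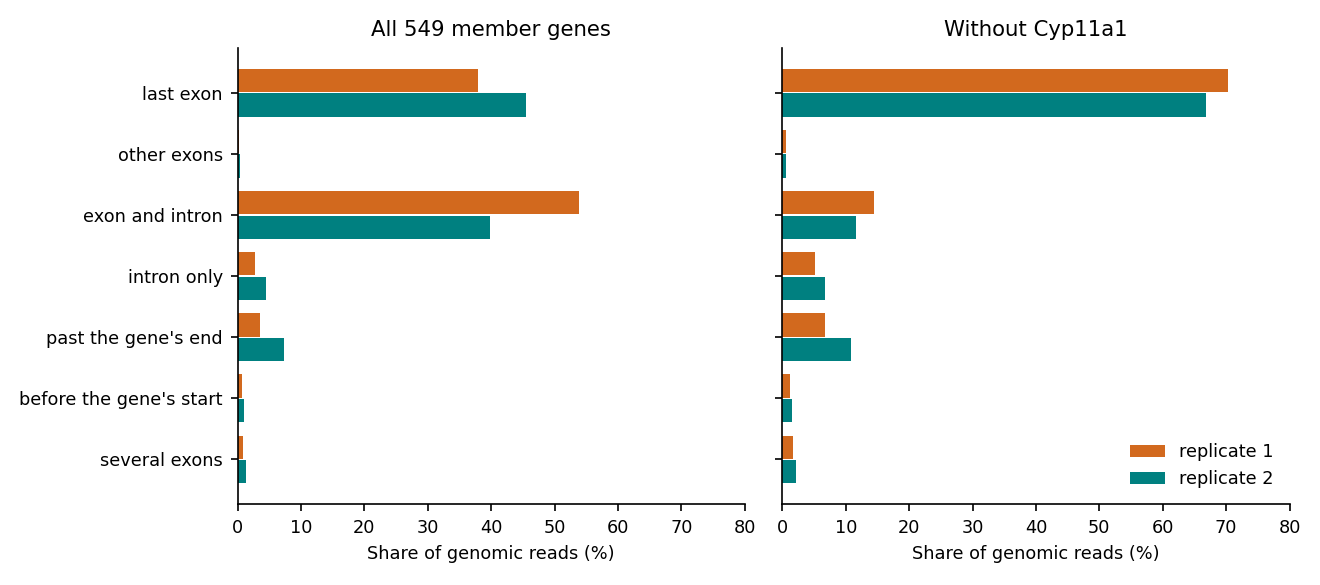
Share of the members' genomic reads by position of their model, in percent, for all 549 genes (left) and without Cyp11a1 (right); bars are replicate 1 and replicate 2. Without Cyp11a1 the last exon class is the longest bar in both libraries, at 70.3% and 66.9%.

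Counted by gene, 424 of 549 members (77.2%) had most of their genomic reads in the last exon class. Exon with intron led in 49 genes, intron only in 38, past the gene's end in 15, before its start in 13, models with several exons in 7 and other exons in 3. The classes differed in how much of a gene they took. The median share of the gene's reads was 16.5% and 13.9% for last exon members, against 85.4% and 87.3% for intron-only members. Some member models lay in exons of another gene on the same strand. Among models of at least 50 bases, 12 with 84 reads in replicate 1 and 10 with 58 in replicate 2 did so to at least 90%. In replicate 2 these included intron-only models of Gm49325 and Gm20521, wholly in exons of Sumo3 and Bcl2l2. Whether such reads come from the other gene was not tested. Among the 523 protein-coding members the median share was 16.7% and 14.3%. All 12 members annotated as antisense RNA together had a median of 100% in each library, and 9 of them reached 90% or more in both.

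**Figure D2:**
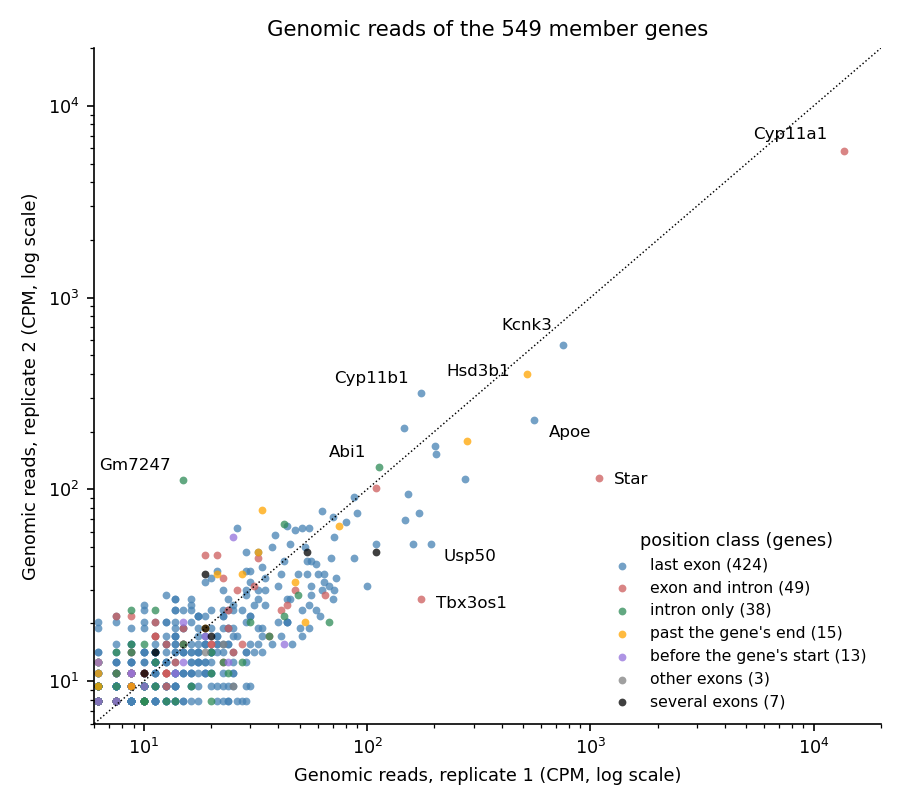
Genomic reads of each of the 549 members in CPM of annotated-gene reads, replicate 1 against replicate 2 on log axes; colour gives the gene's main position class and the dotted line marks equal values. Most genes lie near the line, with Star and Tbx3os1 below it and Gm7247 above it.

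Last exon models came first in number. Kcnk3, a background potassium channel that sets the resting potential of aldosterone-producing cells, had 602 genomic reads of 2554 in replicate 1 and 363 of 2492 in replicate 2. Its share was 23.6% (22.0 to 25.3) and 14.6% (13.2 to 16.0), and the intervals do not overlap. In replicate 1 a single model of 600 reads covered the last exon from chr5:30621913 to its annotated end at 30625271. In replicate 2 the reads were split between 2 models that met at base 30623541, of 125 reads before it and 238 after it. That base is the one before the A-rich stretch printed for Kcnk3 above. The 125-read model started farther upstream, at base 30621537, held 353 intron bases and fell in the class with exon and intron.

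Apoe, the apolipoprotein that carries cholesterol into and out of cells, had 448 genomic reads of 1787 in replicate 1 and 147 of 978 in replicate 2. Both libraries gave the same model, 354 bases at chr7:19696267-19696620, with 238 coding bases. Slc25a5, another ADP/ATP carrier, had 220 of 766 and 72 of 437, on 1 model of 255 bases without a coding base. Shares were 25.1% and 15.0% for Apoe and 28.7% and 16.5% for Slc25a5, higher in replicate 1 in both. Over coding members, 67.4% and 70.3% of last exon reads lay on models without any coding base. Agpat3, an acyltransferase of phospholipid synthesis, had 161 and 107 genomic reads with shares of 36.5% and 32.3%. Sdc3, a syndecan of the cell surface, had 117 and 133 with shares of 44.5% and 40.1%. In both genes the intervals of the libraries overlap.

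**Figure D3:**
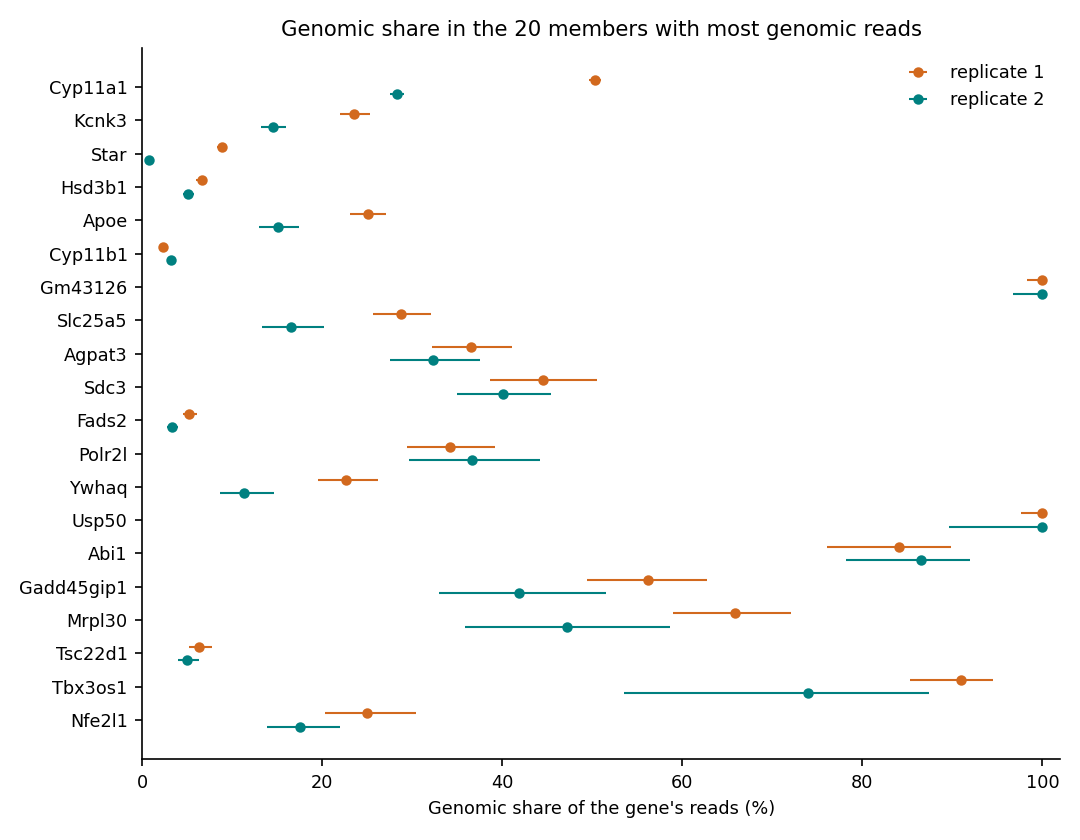
Genomic share of the gene's reads, in percent, for the 20 members with the highest mean genomic CPM; points are replicate 1 and replicate 2 and bars are Wilson 95% intervals, which cover counting error only. Cyp11a1 stands at 50.3% and 28.3%, while Gm43126 and Usp50 stand at 100% in both libraries.

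Among members with at least 50 reads in each library, 312 genes, the highest mean shares after the antisense gene Gm43126 were mostly last exon genes. Klf9, a zinc finger transcription factor, had 56 of 82 reads in replicate 1 and 46 of 64 in replicate 2, or 70.1% ± 2.5 (SD, n = 2). Tns1, an actin-binding protein of focal adhesions, had 56.7% ± 1.5 (SD, n = 2), and Cavin1, a coat protein of caveolae, 54.7% ± 5.9 (SD, n = 2). Trp53inp2, an autophagy gene, had 51.3% ± 4.9 (SD, n = 2) and Fopnl, a centrosome gene, 46.6% ± 3.4 (SD, n = 2). For these 5 genes the intervals of both libraries overlap. Mrpl30 and Mrpl24, proteins of the mitochondrial ribosome, stood at 65.8% and 61.1% in replicate 1, against 47.1% and 37.5% in replicate 2. Gadd45gip1 had 56.2% and 41.9%. Usp50, of the deubiquitinase family, had 155 and 33 reads, all of them genomic, with 153 and 33 on the same last exon model of 259 bases.

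Models with exon and intron were led by Cyp11a1, the side-chain cleavage enzyme that makes pregnenolone from cholesterol. It had 10932 genomic reads of 21722 in replicate 1 and 3696 of 13061 in replicate 2, or 50.3% (49.7 to 51.0) and 28.3% (27.5 to 29.1). Nearly all were on 1 model per library, of 1771 bases from chr9:58025253 in replicate 1 and 4126 bases from 58022898 in replicate 2, both stopping at the annotated end at 58027023. The models span 2 and 3 whole introns. The files give 1 model for all of these reads, so the number of reads that hold each intron, or that lie in the last exon alone, is not known.

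Star, which delivers cholesterol to the inner mitochondrial membrane, had 878 genomic reads of 9898 in replicate 1 and 73 of 9637 in replicate 2. In replicate 1 a model of 869 reads lay at chr8:25812619-25815315, with 2543 exon and 154 intron bases. In replicate 2, 693 single-exon Star reads were instead classed as incomplete splice match (ISM), the class for models that match part of an annotated transcript, and replicate 1 had 0 such reads. With single-exon ISM reads added to genomic reads, the Star share was 8.87% in replicate 1 and 7.95% in replicate 2. The low genomic count of Star in replicate 2 thus stood beside a high single-exon ISM count. The cause was not tested.

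Tbx3os1, an antisense RNA of the Tbx3 locus, had 140 genomic reads of 154 in replicate 1 and 17 of 23 in replicate 2. Tsc22d1, a transcription regulator, had 88 of 1394 and 65 of 1297, on the same model of 3233 bases that spans 2 annotated introns. Ubb, a polyubiquitin gene, had 26 of 2367 and 28 of 1847 on a model that also spans 2 introns. Cfd, the adipocyte protease adipsin, had 52 of 3492 and 18 of 1726 on a model of 407 bases with 1 whole intron. The Tsc22d1, Ubb and Cfd models had identical ends in both libraries. Of the reads with exon and intron, without Cyp11a1, 38.3% in replicate 1 and 80.2% in replicate 2 were on models that span at least 1 whole intron. Star alone put 869 reads of 1853 in replicate 1 on a model that spans none.

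Intron-only models were led by Abi1, a subunit of the WAVE complex that drives actin branching. It had 90 of 107 reads in replicate 1 and 83 of 96 in replicate 2, or 84.1% (76.0 to 89.8) and 86.5% (78.2 to 91.9). The largest model of 90 reads lay at chr2:23009816-23012863 in replicate 1, and that of 73 reads at chr2:23012006-23014676 in replicate 2, both on the minus strand and without an exon base. Gm7247 had 12 of 12 reads in replicate 1 and 71 of 72 in replicate 2, on models that stop at the same base. Nckap5 had 54 of 89 and 13 of 46, mostly on a model of 84 bases in replicate 1 and 90 bases in replicate 2. Jarid2, a cofactor of the Polycomb complex that methylates histone H3, had 29 of 32 and 11 of 15. Its largest model was the same 251 bases in both libraries. No genome sequence was used here, so the bases of these introns are not shown.

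Models past the annotated end were led by Hsd3b1, the dehydrogenase that turns pregnenolone into progesterone. It had 416 genomic reads of 6305 in replicate 1 and 256 of 4990 in replicate 2, or 6.60% (6.01 to 7.24) and 5.13% (4.55 to 5.78). Its models of 413 and 256 reads started in the last exon at chr3:98852745 and ran 2134 and 2142 bases past the annotated end. Cyp11b1, which makes corticosterone, had 140 of 6223 reads and 203 of 6342, or 2.25% and 3.20%. In replicate 2 a model of 133 Cyp11b1 reads ran 2562 bases past the end, whereas replicate 1 had 3 reads on a model that ran 442 bases past it.

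Position past the end was not always stable between the libraries. Fads2, a fatty acid desaturase, had 162 and 97 genomic reads, and its 160-read model in replicate 1 lay in the last exon at chr19:10062765-10063070. In replicate 2 a model of 91 reads lay at chr19:10059513-10062765, on the other side of the same base. Such pairs of largest models that meet in a single base between the libraries occurred in 8 members. Within a library, 32 and 29 pairs of member models met in this way.

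Models before the annotated start were led by Gm26724, an antisense gene, with all of its 20 and 36 reads, on models that began 561 and 1594 bases before the start. Gm37401, also antisense, had 34 and 10 reads, on a model before its start in replicate 1 and inside an intron in replicate 2. Gm14066 had 15 and 11 reads, again all of its reads. The class of other exons was small. B330016D10Rik and Gm3608, both annotated as pseudogenes, had all of their 20 and 6, and 15 and 9, reads on a model that covers the whole gene. Pabpc4, a poly(A)-binding protein, had 17 and 9 reads on a model of 21 bases inside its transcripts, at the same place in both libraries. Of the 20 bases after that model, 14 are A.

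Models with several exons made up 0.907% and 1.40% of member genomic reads. The 5 largest belonged to genes annotated with a single exon, of which the members hold 6. Snord104, a small nucleolar RNA, had 88 and 30 reads on a model with 2 exons and no base in the annotated gene. Rtl8c, derived from a retrotransposon, had 43 and 30, and Tmem200b 15 and 23. Gas1, a membrane protein of growth arrest, had 16 and 11, and Fndc10 had 14 and 12. In these genes the genomic class marks a spliced model at a locus that the annotation gives as unspliced.

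The 3′ ends of the models were placed against the annotation. In the last exon class without Cyp11a1, 84.3% of reads in replicate 1 and 84.1% in replicate 2 were on models that stop exactly at an annotated transcript end. In the class with exon and intron the values were 33.9% and 49.7%. Of member models with at least 5 reads, 391 of 528 and 368 of 502 stopped at an annotated end. A poly(A) signal in the last 40 bases was found in 84.4% and 85.8% of those for which 40 bases could be read. Among models that stop elsewhere it was found in 33 of 80 (41.3%) and 35 of 81 (43.2%). Elsewhere here is any base but an annotated end itself, so it includes ends a few bases away. Examples in replicate 2 are Ube2v1 at -1 and Slc48a1 at -2 bases from an annotated end. Over all 40-base windows of the members' last exons, 3.24% hold AATAAA or ATTAAA on the gene's strand. Some models that stop elsewhere end outside the member's own exons, in bases read from another gene's exon, so the sets are not alike. A match is a description of the letters and not a site of cleavage.

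At ends not exactly at an annotated end, at least 12 A in the next 20 bases were found in 14 of 71 models with sequence in replicate 1 (19.7%) and in 12 of 66 in replicate 2 (18.2%). Over all 20-base windows of the members' own last exons, on the member's strand, the value is 1.09%. The model ends are a wider set. It includes ends in introns, past the gene's end and opposite another gene, where the bases come from that gene's exons. The values are therefore not for like sets. Those models held 398 of 2310 reads and 367 of 1086 reads. Among models that lie opposite exons of another gene, 6 of 15 and 7 of 15 had such an A-rich stretch. The part of these stretches in the reads was not tested.

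Some members lay opposite another gene. Among models of at least 50 bases, 33 with 694 reads in replicate 1 and 35 with 401 reads in replicate 2 lay to at least 90% opposite exons of a gene on the other strand. In 18 members such models held at least 50% of the genomic reads in both libraries, and 11 of these are protein coding and 5 antisense. Gm43126 had 225 of 225 and 114 of 114 reads on a model of 3044 bases, 100% of it opposite Ccnd2 exons, where Ccnd2, a D-type cyclin, had 140 and 99 reads. Gm20659 had 60 of 60 and 41 of 41, wholly opposite Dusp3, a phosphatase with 38 and 46 reads. Glp2r, a gut peptide receptor, had 16 of 16 and 9 of 9, opposite Gas7. The sources used here do not say how strand was assigned, so reads from the antisense gene and from its partner cannot be told apart.

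Across the members, the shares of replicate 1 and replicate 2 were correlated over 549 genes (Pearson r = 0.95, Spearman rho = 0.95). This correlation is across genes, which are not independent replicates, and the libraries share the annotation and the rule. Of 542 members with a single-exon model in both, the largest models overlapped in 519 (95.8%). Their 3′ ends were within 10 bases in 436 (80.4%) and their 5′ ends in 235 (43.4%), and 162 had identical coordinates. The position class was the same in 492 (90.8%).

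The genomic share of each gene was compared between libraries with Fisher's exact test, two-sided, over 5334 genes with at least 20 reads in each. Called genes had a Benjamini-Hochberg adjusted p under 0.05 and shares at least 10 percentage points apart. Over all genes, 0.881% were called, with 0.581% higher in replicate 1 and 0.3% in the other direction. Of 429 members tested, 8 were called, all higher in replicate 1. A gene with few genomic reads can hardly differ by 10 points, and the rule kept out genes with fewer than 5 genomic reads in either library, so both shares depend on the filters. The median difference over the tested members was 1.73 points, against 0 over all genes tested, and 295 members had the larger share in replicate 1, 127 in replicate 2; over all genes tested the counts were 1974 and 1437.

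The called members were Nckap5, Mrpl24, Cyp11a1, Abhd17a, Vps37b, Slc25a5, Ywhaq and Apoe. Nckap5 had 60.7% in replicate 1 and 28.3% in replicate 2 (Fisher's exact test, adjusted p = 0.032), and Mrpl24 61.1% and 37.5% (adjusted p = 0.042). Abhd17a, a depalmitoylating enzyme, had 56 of 181 reads and 17 of 153, or 30.9% and 11.1% (adjusted p = 0.0011). Its 17 reads in replicate 2 were on a model of 3 bases. Vps37b, an ESCRT subunit, had 35 of 168 and 13 of 176 (adjusted p = 0.023), on a model that lies wholly opposite Hip1r exons. Ywhaq, a phosphoserine-binding adaptor, had 137 of 604 and 48 of 425 (adjusted p = 0.00027). For Cyp11a1 the difference was 22.0 points. Star and Kcnk3 differed by 8.11 and 9.00 points and were not called under the 10-point rule, with adjusted p of 1.1e-175 and 1.6e-13 by Fisher's exact test.

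**Figure D4:**
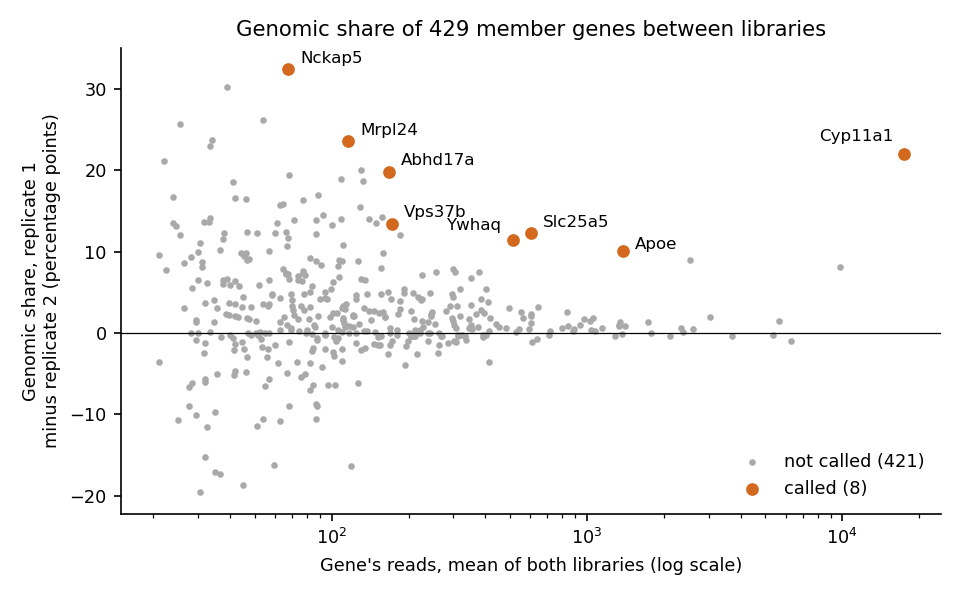
Difference in genomic share, replicate 1 minus replicate 2 in percentage points, for the 429 tested members against the mean reads of the gene on a log axis; filled orange points are the 8 called genes. All called genes lie above 0, and the spread narrows toward deeper genes.

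With single-exon ISM reads added to the genomic reads, a setting chosen after the data were seen, 11 of 5334 genes (0.206%) were called and 5 of the 429 members. Those 5 were among the 8. Nckap5, Mrpl24 and Vps37b were no longer called, with adjusted p of 0.11, 0.13 and 0.078 by Fisher's exact test, although their own counts changed by no read. Over all annotated genes, single-exon ISM reads numbered 10680 in replicate 1 and 6322 in replicate 2. Members had few of them, 225 reads in 44 genes and 818 reads in 34 genes, of which 693 in replicate 2 were Star.

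Lists of genes of the gland were read against this background. The lists are selections and do not hold every gene of their kind. All genes tested had a median genomic share of 0.357% in replicate 1 and 0% in replicate 2. Of the 5334 genes tested, 429 were members, and of 16457 annotated genes with a read, 549 were. Membership rises with a gene's reads, so the member counts of the lists are a description, and no test was made. Of 23 genes of steroidogenesis and cholesterol delivery, 11 were members, and their median share over 20 tested genes was 2.30% and 1.24%. Besides the genes above, these were Scarb1, Abcb1b, Mc2r, Soat1, Lipe and Hsd3b6. Mc2r, the receptor for ACTH, had 21 of 72 reads and 11 of 45, or 29.2% (19.9 to 40.5) and 24.4% (14.2 to 38.7). Called genes of this list were Cyp11a1 and Apoe, 2 of 20 tested, against 0.881% of all genes tested. Both were higher in replicate 1, with none higher in replicate 2.

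Of 20 chromaffin genes, 2 were members, Pnmt, which makes adrenaline, with 12 of 331 and 10 of 197 genomic reads, and Gch1, which makes the cofactor of tyrosine hydroxylase, with 12 of 173 and 10 of 120. The granin genes Chga and Chgb were no members. Chga had 110 genomic reads in replicate 1 and 1 in replicate 2, with 0 and 40 single-exon ISM reads, and Scg2 had 64 and 0, with 0 and 32. Th, tyrosine hydroxylase, had 25 and 0, with 0 and 9. In these genes, as in Star, genomic reads in replicate 1 stood beside single-exon ISM reads in replicate 2. Other genes of the lists, named after their values were seen, had the reverse. Cyp21a1, which makes deoxycorticosterone, had 0 genomic reads in replicate 1 and 63 in replicate 2, with 112 and 0 single-exon ISM reads. Srd5a2, a steroid reductase, had 0 and 9 with 119 and 0, and Vgf, a secreted neuropeptide precursor, 0 and 7 with 8 and 0. Over all 16457 annotated genes with a read, 498 had more genomic and fewer single-exon ISM reads in replicate 1, and 578 had fewer genomic and more single-exon ISM reads there.

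Among the 32 listed genes of the splicing machinery and with known detained introns, 5 were members. Srsf10, Snrnp70 and Hnrnpk, which the list leaves out, were members too. Ddx5, an RNA helicase, had 27 of 605 genomic reads and 9 of 684, and Hnrnpa2b1 had 21 of 409 and 5 of 297. Ddx17, a related helicase, had 11 of 15 and 11 of 14, and Eif4a2 14 of 326 and 7 of 308. Srsf1, a splicing activator, had 10 of 42 and 7 of 50. In replicate 2 the models of Ddx5, Hnrnpa2b1, Ddx17 and Eif4a2 lay in the last exon without an intron base. The Srsf1 model there spans 2 introns. Of 16 listed nuclear and imprinted non-coding RNAs, 9 had a read and 5 were tested. Meg3 alone was a member, with 20 of 209 and 6 of 241. The 34 listed cytosolic ribosomal protein genes had 90 genomic reads of 11445 and 22 of 6727, or 0.786% and 0.327%. Of these 34, 2 were members, Rps27a and Rpl15. The list is a part of the family, and Rps15 and Rpl22, which it leaves out, were members too. The 13 mitochondrially encoded genes with a read had 0 genomic reads of 737 and 0 of 354, and none of 16 immediate early genes was a member. Members hold only 6 genes annotated with a single exon, and the part of gene structure in these list counts was not tested.

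Of 12 adipocyte genes, 6 were members. Cidec, a lipid droplet protein, had 51 of 1250 genomic reads in replicate 1 and 21 of 809 in replicate 2, and Scd1, a desaturase, 45 of 243 and 27 of 192. The 21 Cidec reads in replicate 2 were on a model of 3 bases. Lpl, lipoprotein lipase, had 37 of 1772 and 10 of 908. The median share over the 12 genes was 1.79% in replicate 1 and 0.802% in replicate 2. The share of their summed reads was 1.33% and 1.17%, a sum in which Car3, a carbonic anhydrase, held 7134 of 18377 and 3617 of 8655 reads with 6 and 14 genomic reads. The higher adipocyte marker level of replicate 1 stood beside these values, and its part in them was not tested.

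Members were also set against other genes in structure. The median length of the longest annotated last exon was 2098 bases in the 429 tested members and 1355 bases in the 4905 other tested genes, and the median number of exons 7 and 9. Members had more reads, with medians of 107 and 96 against 60 and 50, so depth and length were read together. In genes with 50 to 199 mean reads, 3.42% of those with a last exon under 500 bases were members, against 15.6% of those with 2000 bases or more. In genes with at least 200 mean reads, the values were 3.76% and 27.1%, and in genes with 20 to 49 reads 1.35% and 8.07%. The values did not rise evenly with length. For last exons from 500 to under 1000 and from 1000 to under 2000 bases, they were 4.39% and 7.21% at 50 to 199 reads. They were 23.0% and 26.4% at 200 reads or more, and 0.688% and 2.04% at 20 to 49 reads. The rule needs a minimum of reads, so the rise with depth follows from it, whereas last exon length was not used by the rule. No test was made.

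**Figure D5:**
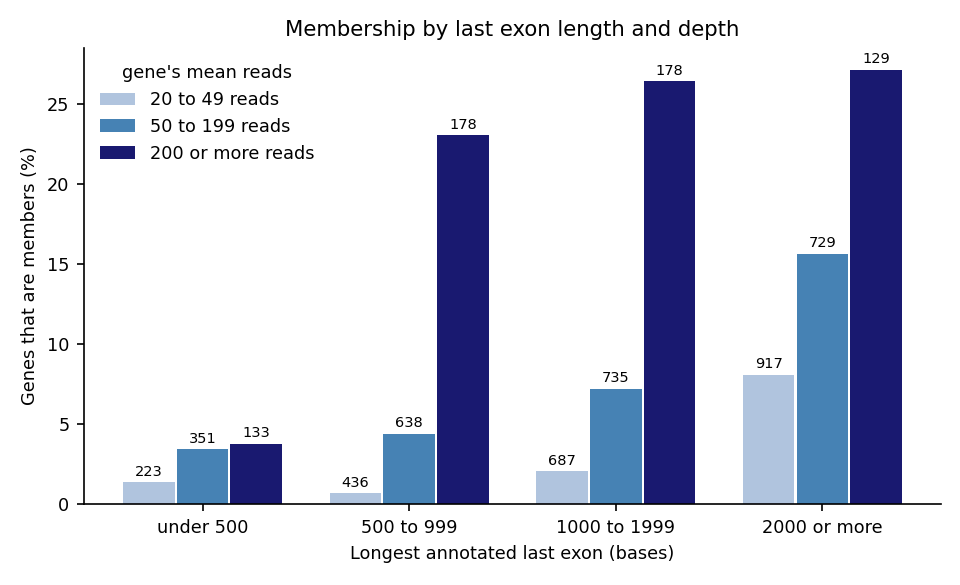
Percent of genes that are members, by the length of the longest annotated last exon in bases and by the gene's mean reads over both libraries (3 shades); numbers above bars give the genes in each bin. In each depth class the bar for last exons of 2000 bases or more is higher than the bar for those under 500.

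Genomic CPM, scaled by annotated-gene reads, had a median log2 ratio, replicate 1 over replicate 2 with 1 CPM added, of 0.08 over the 549 members. Of these, 292 were higher in replicate 1 and 257 in replicate 2. The same genes had a median log2 ratio of all their reads of -0.14, and all tested genes one of -0.11.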

How the data were processed

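The deposited tables, 1 per library, hold raw read counts for every transcript model, with the exon number and length of each model. Per the deposited notes, reads were aligned to mm10 and annotated against GENCODE M21; TALON made the models, as the deposited annotation records. The sources used here do not name the aligner, the platform, the versions or the strand setting. All 834672 annotated exons of the deposited annotation match GENCODE M21.

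Reads of the genomic class were summed per annotated gene. Each model was placed by its overlap with the exons, introns and last exons of all transcripts of its gene, allowing 10 bases. Shares carry Wilson 95% intervals, which cover counting error only, as reads carry no molecular identifiers here. A count of 0 allows 3 reads, which is 3.75 CPM for replicate 1 and 4.70 CPM for replicate 2. With 1 group, edgeR's quasi-likelihood test could not be fitted, so Fisher's exact test per gene was used (Python 3.11.15, scipy 1.17.1). TMM factors came from edgeR 4.0.16 and size factors from DESeq2 1.42.0, only as alternatives. Spike-in reads (5731 and 5156) were left out of shares.

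Named genes were the 20 members with most genomic CPM, the 10 with the highest share at 50 reads or more, the 5 called with the largest difference, the 3 leading models per class, the 5 leading models of several exons and the 4 leading genes per list; others named were chosen after their values were seen. The members, lists and tests were chosen with earlier results of these data known.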

Additional observations from a re-analysis of the deposited data

How the results depend on the processing

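The number of members followed the threshold: 1028 genes at 3 reads in each library, 205 at 10, 824 to 1174 from a single library, 884 with single-exon ISM reads added (chosen after seeing the data), and 537 with single-exon models only. The genes called between libraries numbered 25 at a difference of 20 points, 91 on the adjusted p alone and 11 with single-exon ISM reads added, against 47; a minimum of 50 reads or of 1 read gave 34 and 45. The last exon share of member reads, 41.7% as the mean of both libraries, was 68.6% without Cyp11a1, 74.2% with each gene weighted equally and 37.9% to 45.5% in single libraries. Exon with intron, 46.9%, was 13.0%, 10.7% and 39.9% to 53.9% in these settings. Other slack, or leaving out retained-intron transcripts, moved each class by less than the spread between libraries. The median share, 17.0%, was 22.2% over annotated and genomic reads only and 15.4% to 18.5% in single libraries. The median log2 ratio of genomic CPM, 0.08, was 0.17 with TMM and 0.22 with DESeq2 size factors, which moved all genes by 0.10 and 0.15. No paired analysis was possible because the libraries form 1 group. At few reads per gene, a share is imprecise and only large differences can be called.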
